A study of Homo sapiens with 6 samples.

Results

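The genes described here encode proteins of the squamous cornified envelope or the enzyme that cross-links it, and were followed in the human mammary epithelial line MCF10A with and without overexpression of GIRK1, a subunit of G protein activated inwardly rectifying potassium channels encoded by KCNJ3. They were chosen by gene symbol from a list of 7 (IVL, SPRR1A, SPRR1B, SPRR2A, SPRR2D, SPRR3 and TGM1). Of these, 6 were found among the 20802 gene amplicons of the data, and SPRR2A was not analysed here. The 6 libraries were labelled as 2 replicates each of MCF10A cells named wt, eGFP and hG1a. With the study's methods, wt was read as untransfected MCF10A (MCF10A WT) and eGFP as MCF10A carrying the vector with eGFP only (MCF10A eGFP). The label hG1a was read as MCF10A overexpressing GIRK1 from the same vector (MCF10A GIRK1). The transfected lines carried pIRES2eGFP, a plasmid in which eGFP follows the inserted gene on the same transcript, and both had been selected with G418 and sorted for eGFP fluorescence. All cells were grown in mammary epithelial medium and harvested before confluence, and RNA was measured with the Ion AmpliSeq Transcriptome panel, which amplifies 1 short stretch per gene. Levels are given in RPM, the read count scaled to the library total, and the lines are called WT, eGFP and GIRK1 for short.

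The cornified envelope is a sheet of cross-linked protein that replaces the plasma membrane of terminally differentiating squamous cells such as keratinocytes. Involucrin is laid down early as a scaffold, small proline-rich proteins (SPRR) act as short bridges between other envelope proteins, and transglutaminases join them by isopeptide bonds. Mammary epithelium does not normally cornify, but basal-like mammary cells in culture can switch on parts of this program.

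Library totals ranged from 2506120 to 16040556 reads, so that 3 reads, taken as the limit that a count of 0 allows, corresponded to 0.187 to 1.20 RPM. KCNJ3, the targeted gene, had 217 and 355 RPM in the GIRK1 libraries, 0 in both eGFP libraries and in WT replicate 2, and 19.2 RPM in the library labelled WT replicate 1. That library also went against its label in its epithelial markers. It held 2 reads of KRT5 and 0 of KRT14, the basal keratins that had 3862 to 10660.2 RPM and 306 to 592 RPM in the other 5 libraries, and the summed level of 15 luminal markers was 19928 RPM in it against 732 to 1102 RPM elsewhere. The amplicon of TP63, a basal transcription factor, had 0 reads in all 6 libraries. The deposited file names carry 1 tag for the GIRK1 libraries and another for the remaining 4; if the tag marks a run, its part in any difference cannot be told apart from that of the condition. WT replicate 1 was therefore kept out of the comparisons and is described separately, and GIRK1 was compared with eGFP and with eGFP and WT replicate 2 together.

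The SPRR genes are close relatives, and the first coding bases of the 4 that were measured are shown because the SPRR1B amplicon, bases 26 to 124 of its RefSeq transcript, ends with this stretch. Each line gives coding bases 1 to 59, 5′ to 3′, and capitals mark bases that differ from SPRR1B.
SPRR1B: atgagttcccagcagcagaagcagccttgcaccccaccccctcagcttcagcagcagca
SPRR1A: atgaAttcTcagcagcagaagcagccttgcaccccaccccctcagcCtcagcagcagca
SPRR3: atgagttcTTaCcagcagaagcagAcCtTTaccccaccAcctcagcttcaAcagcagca
SPRR2D: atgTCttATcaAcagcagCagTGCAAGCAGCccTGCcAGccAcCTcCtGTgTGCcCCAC
SPRR1A differed from SPRR1B at 3 of these bases, SPRR3 at 9 and SPRR2D at 34. In a search with the whole 99-base SPRR1B amplicon the nearest other gene was SPRR1A, with 56 identical bases over an aligned stretch of 59. The SPRR1A transcript searched began at its first coding base. The amplicon bases before the SPRR1B start codon could therefore not be compared with SPRR1A. The SPRR2D amplicon was nearly the same as SPRR2A, with 94 of its 96 bases identical, so reads given to SPRR2D could come from either gene. The amplicons of IVL and TGM1 had no near-identical copy, with 35.6% and 56.2% of their bases identical to the nearest other gene. For SPRR1A and SPRR3 the deposited amplicon window did not match the reference transcript, and their cross-match was not tested.

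In RefSeq coordinates of GRCh38.p14, IVL (1:152908546-152911886), SPRR1A (1:152984081-152985814), SPRR3 (1:153001749-153003856) and SPRR1B (1:153031203-153032900) lie on the plus strand of chromosome 1 and SPRR2D (1:153039732-153041120) beside them on the minus strand, within the epidermal differentiation complex. TGM1 (14:24249114-24263177) is on the minus strand of chromosome 14. The bases before the start of the SPRR1 pair are shown because 1 of these neighbours differed between the lines and the other did not pass the test. Each line holds the 250 bases before the annotated start of the gene on the plus strand of chromosome 1, from chr1:153030953-153031202 for SPRR1B and chr1:152983831-152984080 for SPRR1A, and capitals mark matches to TGANTCA, the heptamer bound by AP-1, which reads the same on both strands.
SPRR1B: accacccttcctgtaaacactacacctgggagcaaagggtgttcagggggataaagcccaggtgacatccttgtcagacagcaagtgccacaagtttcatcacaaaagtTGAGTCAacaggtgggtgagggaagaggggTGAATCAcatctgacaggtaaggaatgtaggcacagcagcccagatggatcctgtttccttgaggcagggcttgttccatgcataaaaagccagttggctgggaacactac
SPRR1A: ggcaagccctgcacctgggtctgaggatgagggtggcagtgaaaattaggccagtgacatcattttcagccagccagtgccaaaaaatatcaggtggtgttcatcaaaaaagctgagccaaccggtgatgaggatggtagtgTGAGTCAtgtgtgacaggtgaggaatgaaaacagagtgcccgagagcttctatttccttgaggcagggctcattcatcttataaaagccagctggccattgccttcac
SPRR1B held 2 matches, the nearer of which began 111 bases before the start, and SPRR1A held 1, 108 bases before it. IVL and SPRR3 also held 1 match each, 123 and 170 bases before their starts, while 6.57% of the 35116 promoters in the same table held at least 1. A match is a sequence of letters and was not tested as a binding site.

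Among the envelope genes, SPRR1B, a small proline-rich bridging protein, fell in GIRK1. Read counts were 934 and 1006 with eGFP (182 and 98.3 RPM), 799 in WT replicate 2 (49.8 RPM), and 153 and 149 with GIRK1 (13.8 and 14.4 RPM). Both GIRK1 libraries lay below every one of these 3 controls and close to each other. The mean was 140 ± 59.3 RPM in eGFP and 14.1 ± 0.443 RPM in GIRK1 (SD, n = 2 each).

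Against eGFP, SPRR1B was 10.3-fold lower, with a log2 fold change of -3.37 (SE 0.37, 95% interval -4.26 to -2.48) and an adjusted p of 0.0137 in edgeR's quasi-likelihood test over 11279 genes. It was the 1 gene called of the 4 members tested, where 0.745% of all genes were called lower and 0.78% higher. SPRR1B and SPRR1A, 2 of the 4 members tested, had both GIRK1 values under both eGFP values, as did 25.2% of all genes tested. Leaving out 1 library at a time kept SPRR1B below the threshold, with log2 fold changes between -3.79 and -2.79 and adjusted p between 1.55e-06 and 0.0193. When all 6 libraries entered the fit, so that the distance between the WT libraries counted as replicate spread, the log2 fold change stayed at -3.37 but its SE grew to 1.505, and the adjusted p was 0.933. In RNA from whole cultures, fewer cells expressing a gene and less RNA per cell cannot be told apart.

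With WT replicate 2 added to the controls, SPRR1B had a log2 fold change of -3.01 (SE 0.57, 95% interval -4.36 to -1.65) and its adjusted p of 0.0661 in edgeR missed the threshold over 11389 genes. None of the 4 members tested was called by edgeR, where 0.413% of all genes were called lower and 0.799% higher. In edgeR 1 member, SPRR1B, had an unadjusted p under 0.05 (0.00115), as did 2134 of all 11389 genes. DESeq2 called 1 member, SPRR1B, with an adjusted p of 6.25e-07, and 806 of all 11389 genes. SPRR1B was the 1 member tested for which both GIRK1 libraries lay below all 3 controls, as 19.6% of all genes did. The control libraries themselves were spread for this gene. Pooled eGFP reads gave a level 2.54 times that of WT replicate 2 (95% counting interval 2.33 to 2.76), and eGFP replicate 1 stood 1.85 times above eGFP replicate 2 (1.69 to 2.03). Fitted with a mean for each of the 3 lines in place of 1 mean for all controls, the same 5 libraries gave -2.58 (SE 0.35) and an adjusted p of 0.0229 in edgeR. Leaving out 1 library at a time, the adjusted p was 0.0137 without WT replicate 2 and 0.00213 without eGFP replicate 1, but 0.210 without eGFP replicate 2, 0.424 without GIRK1 replicate 1 and 0.517 without GIRK1 replicate 2.

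Against WT replicate 2 alone, in the same fit of 3 line means and with that lone library assumed to vary like the others, SPRR1B had a log2 fold change of -1.80 (SE 0.40, 95% interval -2.75 to -0.85) and an adjusted p of 0.292 over 11779 genes in edgeR. None of the 5 members tested was called, where 0.034% of all genes were called lower and 0.195% higher. TGM1 had a log2 fold change of -0.72 (SE 0.29) in this comparison. DESeq2 was not run for this comparison. The order of SPRR1B levels was thus eGFP above WT replicate 2 above GIRK1, with the distance from GIRK1 to WT replicate 2 smaller than that to eGFP.

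**Figure D1:**
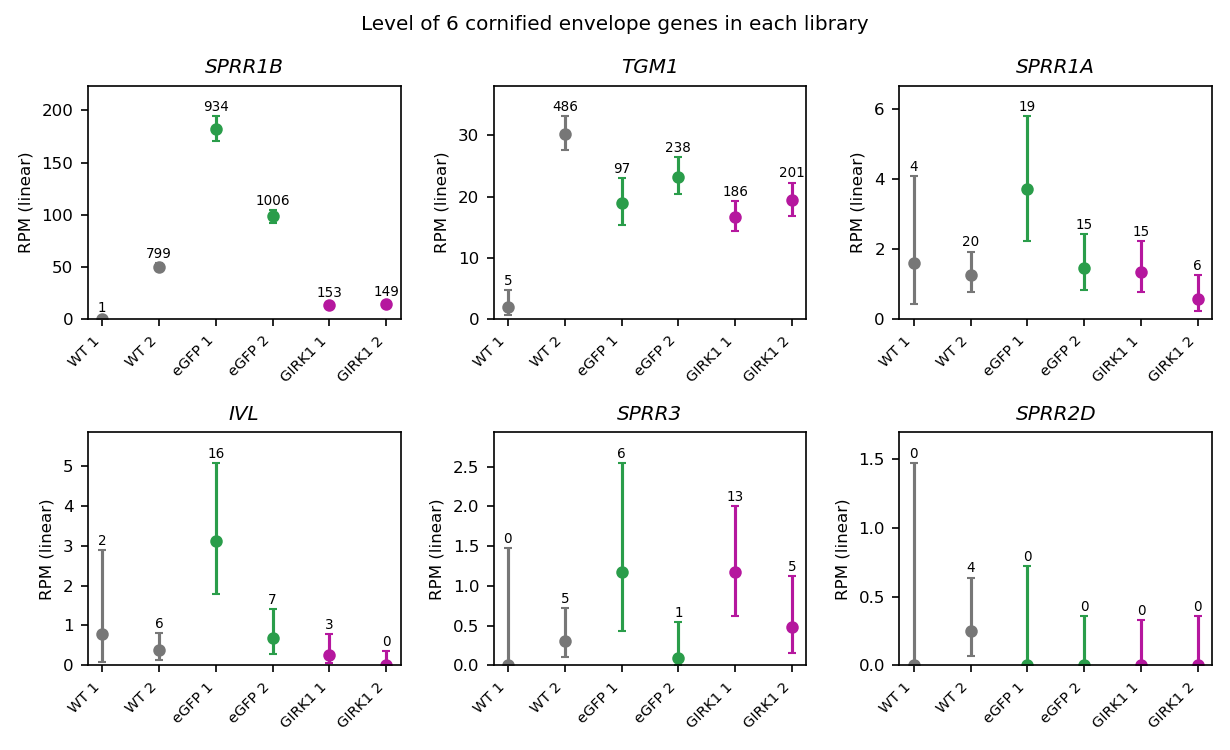
Level of each of the 6 envelope genes in each library, in RPM on a linear axis that starts at 0. Points are single libraries, bars are exact 95% intervals for counting error, and the number above each bar is the read count. SPRR1B lay at 13.8 and 14.4 RPM in GIRK1 against 98.3 and 182 RPM in eGFP. TGM1 overlapped between GIRK1 and eGFP and was highest in WT replicate 2.

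TGM1, the membrane-anchored transglutaminase that cross-links envelope proteins in keratinocytes, did not pass the test in any of the 3 comparisons. It had 97 and 238 reads in the eGFP libraries (18.9 and 23.3 RPM), 486 in WT replicate 2 (30.3 RPM), and 186 and 201 in GIRK1 (16.7 and 19.4 RPM). The GIRK1 and eGFP libraries overlapped, and WT replicate 2 was the highest. Its log2 fold change was -0.26 (SE 0.25, 95% interval -0.85 to 0.33, adjusted p 0.599) against eGFP and -0.44 (SE 0.24, 95% interval -1.0 to 0.12, adjusted p 0.364) against the 3 controls in edgeR. Neither interval held a difference as large as that of SPRR1B. The ratio of SPRR1B to TGM1 RPM, which compares libraries and not the amounts of both genes, since amplicons differ in efficiency, was 9.63 and 4.23 in eGFP, 1.64 in WT replicate 2 and 0.823 and 0.741 in GIRK1.

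SPRR1A, the neighbour of SPRR1B and likewise a bridging protein of the envelope, was read far less often. It had 19 and 15 reads in the eGFP libraries (3.71 and 1.47 RPM), 20 in WT replicate 2 (1.25 RPM), and 15 and 6 in GIRK1 (1.35 and 0.580 RPM). Both GIRK1 libraries were below both eGFP libraries, but GIRK1 replicate 1 was above WT replicate 2. The log2 fold change was -1.38 (SE 0.71, 95% interval -3.09 to 0.32) against eGFP with an adjusted p of 0.337 in edgeR, and -1.07 (SE 0.70) with an adjusted p of 0.453 against the 3 controls. The interval held 0, and with 6 to 20 reads per library it also reached close to the difference seen for SPRR1B.

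IVL, which encodes the scaffold protein involucrin, was near the limit of detection. It had 16 and 7 reads in the eGFP libraries (3.12 and 0.684 RPM), 6 in WT replicate 2 (0.374 RPM), and 3 and 0 in GIRK1 (0.270 and 0 RPM). Both GIRK1 libraries were the lowest of the 5, and eGFP replicate 1 was the highest. The pooled eGFP level was 10.7 times that of GIRK1, with a 95% counting interval of 3.24 to 55.7 on 23 against 3 reads, and this interval, like all those on reads here, covers counting error only, since amplified reads without molecular identifiers are not independent molecules. IVL did not pass the filter on low counts in either comparison. Without that filter its adjusted p against eGFP was 0.0819 in edgeR (log2 fold change -3.60, SE 1.17). Some alternative fits needed only 1 library to pass the filter, and IVL entered them through eGFP replicate 1, where it was highest. A call there is thus no separate support for a difference. Its log2 fold change was -4.46 (SE 1.05) without eGFP replicate 2, -7.00 without GIRK1 replicate 1 and -2.75 without GIRK1 replicate 2. With 3 line means it was -3.62 (adjusted p 0.212 in edgeR).

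SPRR3, a longer proline-rich protein of mucosal squamous epithelia, had 6 and 1 reads in eGFP (1.17 and 0.098 RPM), 5 in WT replicate 2 (0.312 RPM), and 13 and 5 in GIRK1 (1.17 and 0.483 RPM). The groups overlapped. Its log2 fold change of 0.65 (SE 1.08, adjusted p 0.773 in edgeR) against eGFP became -0.59 without eGFP replicate 2. SPRR2D, a member of the SPRR2 group of bridging proteins, had 4 reads in WT replicate 2 and 0 in each of the other 5 libraries, so that no difference was detectable at this depth.

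**Figure D2:**
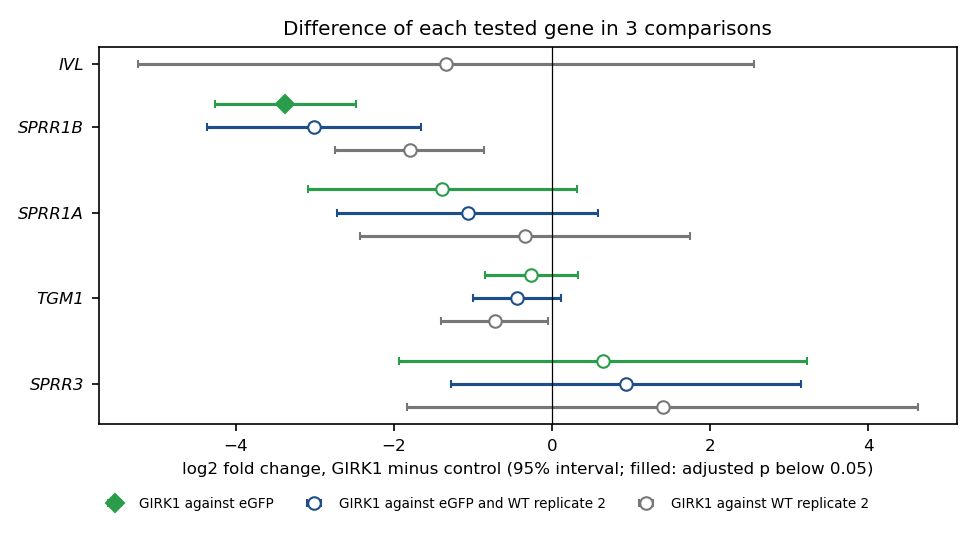
Log2 fold change (GIRK1 minus control) of each envelope gene that passed the filter on low counts, with its 95% interval, in 3 comparisons: against eGFP, against eGFP and WT replicate 2, and against WT replicate 2 alone. Filled diamonds mark an adjusted p below 0.05, reached by SPRR1B against eGFP; the intervals of SPRR1A and SPRR3 span 0 in all 3 comparisons, and IVL was tested only against WT replicate 2 alone.

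The library labelled WT replicate 1 was far below WT replicate 2 in SPRR1B and TGM1 and within counting error of it in the other members. SPRR1B had 1 read in it (0.399 RPM), and WT replicate 2 was 125 times higher, with a 95% counting interval of 22.3 to 4937. TGM1 had 5 reads (2.0 RPM), and WT replicate 2 was 15.2 times higher (6.46 to 47.0). SPRR1A had 4 reads and 1.60 RPM, and its ratio of 0.781 (0.262 to 3.14) held 1, as did that of IVL, with 2 reads and 0.798 RPM, at 0.469 (0.0838 to 4.75). SPRR2D and SPRR3 had 0 reads, which allows up to 1.20 RPM in this library. SPRR1B was at least 10-fold below the lowest of the other 5 libraries, as were 5.04% of the 9212 genes that averaged 50 reads or more, a set that held 2 members. The SD of the log2 ratio between the WT libraries over these genes was 1.70, against 0.622 between the eGFP libraries and 0.325 between the GIRK1 libraries. With WT replicate 1 among the controls, SPRR1B had a log2 fold change of -2.60, with an SE of 1.59 and an adjusted p of 0.803 in edgeR.

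Other genes of the cornification program were taken from lists by role, and they did not move as 1 group with SPRR1B. The 4 other SPRR genes in the tables had 0 reads in all 6 libraries. Of 24 further envelope precursors of the epidermal differentiation complex, 17 had 0 reads throughout, and 1 was tested, LCE1B, a late envelope protein. LCE1B had 2.15 and 4.89 RPM in eGFP, 4.61 in WT replicate 2, and 14.9 and 6.19 RPM in GIRK1, with a log2 fold change against eGFP of 1.49 (SE 0.55, adjusted p 0.216 in edgeR). Envelope proteins encoded elsewhere were tested for 6 genes, and none was called by edgeR or DESeq2 or had an unadjusted p under 0.05 in edgeR. The largest differences among them were those of PI3, a secreted transglutaminase substrate (-0.93), and the plakins EVPL (-0.67) and PPL (0.46), with adjusted p of 0.520, 0.352 and 0.402. The median log2 fold change was -0.82 over the 4 members tested and -0.13 over these 6 genes, beside 0.01 over all genes.

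Among other transglutaminases and processing enzymes, none of 4 tested was called by edgeR, 3 had an unadjusted p under 0.05, and DESeq2 called 1 (CASP14). Of all 11279 genes tested against eGFP, 2163 had an unadjusted p under 0.05 in edgeR and DESeq2 called 694. CASP14, a caspase of terminal keratinocyte differentiation, had 1373 and 166 reads in eGFP (268 and 16.2 RPM), 63 in WT replicate 2 (3.93 RPM), and 1 and 0 in GIRK1. The GIRK1 libraries lay below all 3 controls, as they did for 19.6% of all genes tested in that comparison. The eGFP libraries were themselves 16.5-fold apart. The pooled eGFP level was 2149 times that of GIRK1, with a 95% counting interval of 385 to 84953 on 1539 against 1 read, and the adjusted p in edgeR was 0.0575. In alternative fits against eGFP it was called by DESeq2, and in edgeR with library totals, without the low-count filter, with 3 line means and with the replicate block. It was not called with DESeq2 size factors, covering reads or all 6 libraries. Against the 3 controls its adjusted p was 0.139 in edgeR. There it was also not called with DESeq2 size factors, library totals, covering reads, 3 line means or all 4 control libraries. With 1 and 0 reads in GIRK1, CASP14 passed the low-count filter only through control libraries. TGM2, the tissue transglutaminase, stood at -1.79 on the log2 scale with an adjusted p of 0.187, and SPINK5, an inhibitor of epidermal proteases, at 1.16 with 0.157. Of 5 lipid barrier enzymes tested none was called by edgeR, while 1, ABCA12, had an unadjusted p under 0.05 and was called by DESeq2. In edgeR, ABCA12, a lipid transporter of lamellar granules, stood at 1.40 on the log2 scale (adjusted p 0.0582), ALOXE3, an epidermal lipoxygenase, at -0.87 (0.277) and UGCG, a glucosylceramide synthase, at -0.23 (0.646).

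Of 3 suprabasal and mucosal keratins tested, 2 rose in GIRK1 against eGFP and none fell. KRT6A, a keratin of activated keratinocytes, was not called (log2 fold change 0.14, SE 0.33, adjusted p 0.838 in edgeR). KRT10, the keratin of the suprabasal epidermis, had 0.975 and 3.62 RPM in eGFP, 10.5 in WT replicate 2, and 26.9 and 58.0 RPM in GIRK1, with a log2 fold change of 4.05 (SE 0.59, adjusted p 0.0347 in edgeR). KRT16, likewise a keratin of activated keratinocytes, had 27.1 and 26.0 RPM in eGFP, 26.0 in WT replicate 2, and 73.2 and 62.0 RPM in GIRK1, with a log2 fold change of 1.31 (SE 0.22, adjusted p 0.0473). For both genes the GIRK1 libraries lay above all 3 controls, as they did for 21.6% of all genes tested in that comparison. Against the 3 controls KRT16 was called (1.34, adjusted p 0.0178), whereas KRT10 was not (2.95, adjusted p 0.104). Without GIRK1 replicate 1 or without GIRK1 replicate 2, KRT16 was no longer called against eGFP, while KRT10 was called without each of the 4 libraries in turn. With covering reads neither gene was called, nor with all 6 libraries, and KRT16 was also lost with DESeq2 size factors. Against the 3 controls KRT16 was lost without eGFP replicate 2, without either GIRK1 library and with all 4 control libraries.

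Among transcription factors of squamous differentiation, FOSL1, a subunit of AP-1 and named here after its values were seen, had 17.2 and 16.7 RPM in eGFP, 14.7 in WT replicate 2, and 6.21 and 7.64 RPM in GIRK1, with a log2 fold change of -1.33 (SE 0.28, adjusted p 0.0861 in edgeR; DESeq2 called it).

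**Figure D3:**
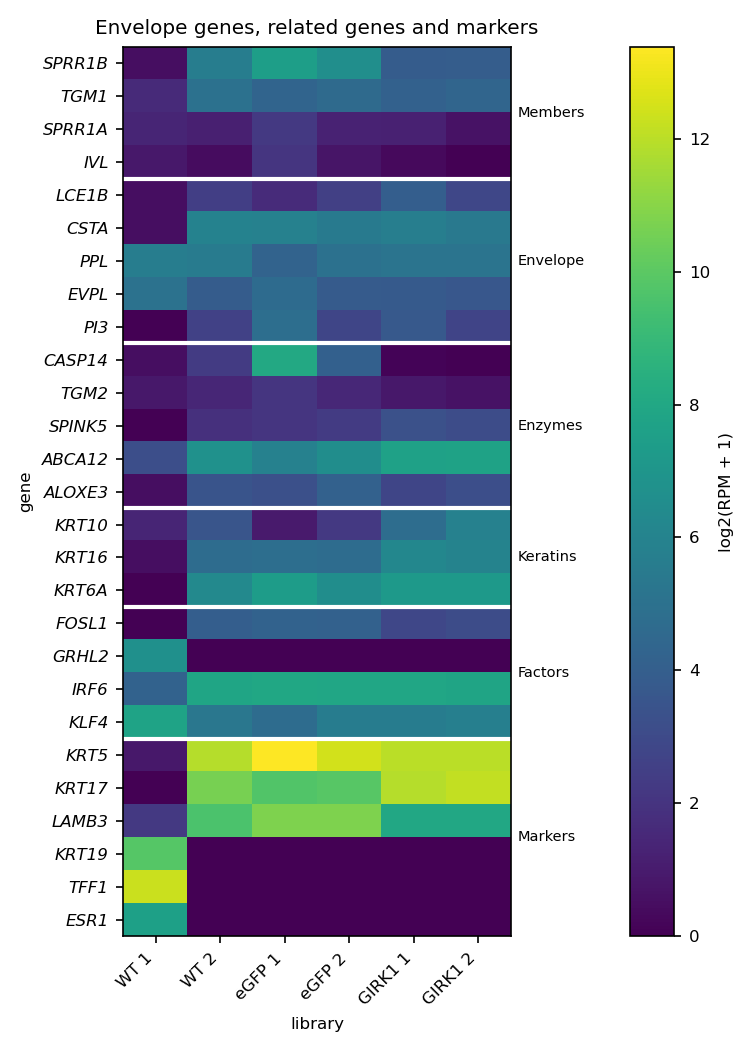
Level of envelope genes, related genes and lineage markers in each library, as log2(RPM + 1), with rows grouped by role and columns by library. SPRR1B and CASP14 are darker in both GIRK1 columns than in the eGFP columns while KRT10 and KRT16 are lighter, and WT replicate 1 stands apart in KRT5, KRT17, KRT19 and TFF1.

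Markers of cell types moved with SPRR1B in part. Among basal epithelial markers, KRT17 rose (log2 fold change 2.17, adjusted p 0.0104 in edgeR) and the laminin chain LAMB3 fell (-2.81, adjusted p 0.0038) against eGFP. The summed level of the 10 basal markers listed was 17939 and 11978 RPM in eGFP, 9599.7 RPM in WT replicate 2 and 10506 and 11199 RPM in GIRK1. In edgeR none was called of 7 luminal markers (largest differences AGR2 at 2.71, CA12 at -1.63 and XBP1 at 0.66), of 7 mesenchymal markers (ZEB2 at 1.21, VIM at -0.92 and ZEB1 at 0.34) or of the 1 immune marker tested (CD68 at -0.32). The luminal marker AGR2 and the mesenchymal marker VIM had an unadjusted p under 0.05 in edgeR, as did 2163 of all 11279 genes. DESeq2 called both markers, among 694 genes in all. The part of these markers in the SPRR1B difference was not tested.

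To find genes that behaved like the members, the profile of each of 9210 other genes over the 6 libraries, as log2(RPM + 1) centred on its mean, was set against the median profile of SPRR1A, SPRR1B and TGM1, the 3 members with enough reads. The nearest were SLIT2 (root mean square distance 0.207), CA13 (0.255), SQRDL (0.257), EPAS1 (0.259) and DOCK4 (0.261). The members themselves lay farther from their median, at 0.493 for TGM1, 1.14 for SPRR1A and 1.24 for SPRR1B. The median profile was lowest in WT replicate 1, at -2.41, and highest in WT replicate 2, at 0.97, so that WT replicate 1 set most of its range.

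**Figure D4:**
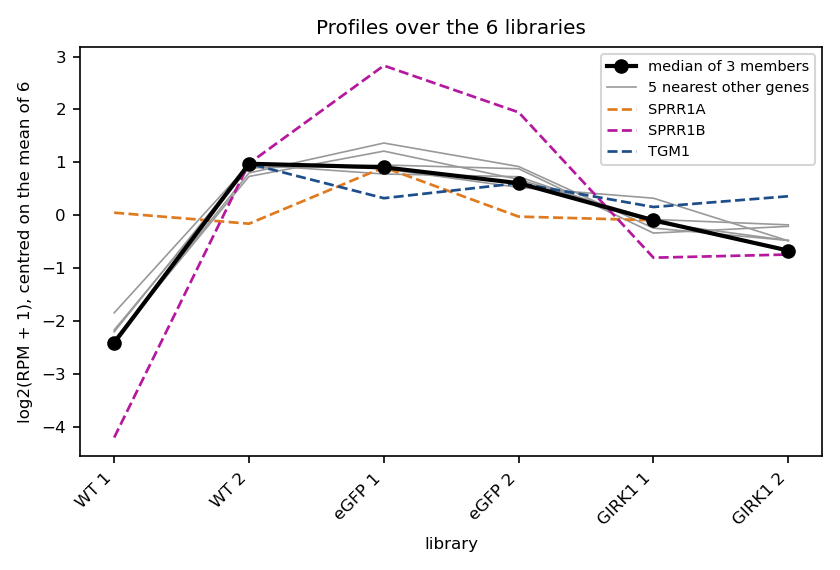
Profile over the 6 libraries of 3 envelope genes (dashed), their median (black) and the 5 nearest other genes (grey), as log2(RPM + 1) centred on each gene's mean over the libraries. The median and the grey lines are lowest in WT replicate 1, and SPRR1B spans the widest range, from -4.20 there to 2.83 in eGFP replicate 1.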

How the data were processed

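The authors sequenced Ion AmpliSeq Transcriptome libraries on an Ion S5 XL instrument, mapped the reads with the Ion Torrent software, and deposited for each amplicon its read counts, unnormalized, with forward and reverse covering reads, in 1 file per library. The RPM column that the authors deposited equals each count scaled to the library total. How reads of near-identical genes were assigned is not given in the sources used here. Groups were taken from the labels, which do not say whether replicates came from separate cultures, so p-values measure only the spread between these libraries.

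The 10 ERCC amplicons, with 0 reads, were removed, leaving 20802. The test on counts was that of edgeR 4.0.16 in R 4.3.3 (filterByExpr, TMM, quasi-likelihood, whole-library totals), two-sided, with Benjamini-Hochberg adjustment over all genes tested and a threshold of 0.05; DESeq2 1.42.0 was an alternative. Fold changes are MCF10A GIRK1 minus control on the log2 scale. The test was checked on simulated counts. Exact 95% intervals cover counting error. Sequences come from RefSeq (GRCh38.p14; 4 of 6 members had a promoter entry) and GENCODE transcripts, compared with blastn 2.17.0. The members and lists were chosen with earlier results of these data known. Named from each other list were the genes called against MCF10A eGFP or, where there were none, up to 3 with the largest differences, and 5 genes most like the members. The fit with WT replicate 2 alone was chosen after seeing the data. Some genes of these lists are not reported here.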

Additional observations from a re-analysis of the deposited data

Results flagged for a closer look

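Several genes of the same lists stood at least 10-fold higher in the library labelled WT replicate 1, which was kept out of the main comparisons, than in each of the other 5 libraries. CALML5, a calmodulin-like envelope protein, had 534 RPM there, against at most 0.36 RPM elsewhere. The transcription factors GRHL2 and ELF3 had 104 and 150 RPM there. GRHL1 had 32.3 RPM and OVOL1 had 16.0 RPM. The receptor NOTCH3 had 69.8 RPM. KRT13, a mucosal keratin, had 6.38 RPM, and LCE1F, a late envelope protein, had 11.6 RPM. Of the 9212 genes examined above for lower levels in this library, 112 (1.22%) stood at least 10-fold above the other 5 libraries. That set was limited by mean reads, and KRT13, with 16 reads in WT replicate 1, was outside it. The share among all genes of these lists is not given, so the named genes cannot be judged against 1.22%.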

How the results depend on the processing

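SPRR1B kept its direction in every alternative run in both comparisons. In fits against MCF10A eGFP that kept both eGFP and both GIRK1 libraries, the members called were 1, but 0 with all 6 libraries. When single libraries were left out, SPRR3 ranged from a log2 fold change of -0.59 without eGFP replicate 2 to 2.96 without eGFP replicate 1. IVL entered the fit without eGFP replicate 2 only through eGFP replicate 1, where it was highest, so its call there is no separate support for a difference. Against the 3 controls 0 members were called, but 1 without the low-count filter, with DESeq2, with 3 line means and with the replicate block, and 0 to 1 when single libraries were left out; SPRR1B then had log2 fold changes of -2.996, -3.02, -2.58 and -2.97, and -3.37 without WT replicate 2 and -2.37 without eGFP replicate 1. All genes called against MCF10A eGFP numbered 172 (51.2% higher), but 881 without the filter (36.4% higher), 694 with DESeq2, 590 with the replicate block (36.8% higher), 0 with all 6 libraries (599 at an unadjusted p under 0.05) and 89 to 2933 when single libraries were left out. Against the 3 controls they were 47 lower and 91 higher, but in all 374, 806 and 558 in the same order, 7 with all 4 control libraries and 19 to 984 when single libraries were left out. The replicate numbers share only a number, with a correlation of replicate differences of 0.167 between MCF10A eGFP and MCF10A GIRK1. Where 1 library was left in a group it was assumed to vary like the others. DESeq2 size factors, library totals and covering reads in place of all reads left each of these counts within 1.5 times. For IVL, SPRR1A, SPRR2D and SPRR3, read numbers limit what can be seen. The causes of these changes were not tested.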
